A study of Mus musculus with 14 samples.

Results

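The genes described are *Alx1*, *Alx4*, *Prrx1*, *Prrx2*, *Pax1*, *Pax9*, *Shox2* and *Pitx1*. They were chosen by name and found by an exact match of the gene symbol, which gave 8 genes of 23284 in the count tables. Paired-type homeobox and paired-box genes encode transcription factors that pattern the early limb bud and the shoulder girdle. *Prrx1* and *Prrx2* are paralogues expressed throughout the early limb mesenchyme, *Alx1* and *Alx4* belong to the aristaless-related group, of which *Alx4* marks the anterior bud mesenchyme, and *Shox2* acts in the proximal limb skeleton. *Pax1* and *Pax9* are paralogues best known from the sclerotome and pharyngeal pouches, and *Pax1* also takes part in forming the scapula. *Pitx1* is a determinant of hindlimb identity. SMAD4 is the common mediator of BMP and TGFβ signal transduction, and BMP signals act on many genes of the limb bud.

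Transcripts of these genes were compared by RNA-seq between genotypes and stages in NMRI mouse embryos. At 30 somites (E10.0), 3 wild-type embryos (*Smad4*+/+ PrxCreT/+) and 4 mutant embryos (*Smad4*Δ/Δc PrxCreT/+) were sampled, and at 35 somites (E10.5) again 3 and 4 embryos of these genotypes, with the forelimb bud pair of 1 embryo as a replicate. Where values of single embryos are listed, they follow the replicate numbers, which are 1, 2 and 3 in wild type, 1, 3, 4 and 5 in mutants at E10.0, and 1, 2, 4 and 5 in mutants at E10.5. Controls and mutants carried the same CRE transgene, which is driven by *Prrx1* regulatory sequence and acts in the limb bud mesenchyme. Mutants had 1 *Smad4* allele that was null in every cell and 1 that CRE inactivated in the mesenchyme, so that the other cells of their buds, such as the ectoderm, kept 1 intact copy against 2 in controls. The transgene shares its regulatory sequence with one of the genes measured here. In bulk tissue, fewer cells of a type and less RNA per cell cannot be told apart.

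Reads counted on genes ranged from 34066930 to 61691258 per embryo. *Smad4* ranged from 152 to 169 CPM (TMM-normalized counts relative to library size) in the 6 wild-type embryos and from 32.9 to 46.0 CPM in the 8 mutants. Each library thus matched the genotype in its label, and the stage is not checked by this gene. The forelimb gene *Tbx5* was present at 76.8 CPM or more in every embryo. The mutant replicates numbered 4 and 5 stood apart at both stages: the ribosomal RNA precursor *Rn45s* took 1.72% to 8.05% of their reads and 0.151% to 0.478% in the other 10 libraries. As no wild-type library resembled them, this difference and the genotype cannot be told apart, and results that changed without these 4 libraries are given both ways.

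The promoter of *Pax1* is shown because this gene had the largest decrease in mutants. It is the RefSeq sequence of the 250 bases before the gene start in GRCm38.p6, at chr2:147364744-147364993 on the plus strand. Letters of a motif found by the search described after it would be in capitals, and there were none. The mm9 annotation also holds a *Pax1* transcript that starts further upstream, so that the window lies in an intron of that transcript. The windows of *Prrx2* and *Prrx1* overlapped annotated exons in mm9 and are not shown.
Pax1: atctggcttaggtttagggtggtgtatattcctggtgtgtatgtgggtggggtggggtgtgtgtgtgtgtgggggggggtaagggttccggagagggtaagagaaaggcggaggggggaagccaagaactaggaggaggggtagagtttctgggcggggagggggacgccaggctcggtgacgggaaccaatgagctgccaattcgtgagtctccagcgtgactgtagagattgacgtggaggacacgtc
The RefSeq table held 5 of the 8 genes (*Prrx1*, *Prrx2*, *Pax1*, *Pax9* and *Shox2*), and *Alx1*, *Alx4* and *Pitx1* had no entry. Both strands were searched for CAGAC, for the GC-rich SMAD site GGCGCC, for the palindromic SMAD site GTCTAGAC, for TAATTA and for the P3 dimer site of paired-type homeodomains. None of the motifs contains another. Of 32851 promoters of the same length, 42.2% held CAGAC, 9.59% GGCGCC, 0.167% GTCTAGAC, 4.84% TAATTA and 0.463% the P3 site. The *Prrx1* window held 1 CAGAC and 1 TAATTA, the *Pax9* window held 1 GGCGCC, and the windows of *Prrx2*, *Pax1* and *Shox2* held none of the 5 motifs. A match describes the letters of a window and is not evidence of binding.

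To compare genes with each other, counts were set relative to the length of their merged exons (CPM per kb). *Prrx1* was the most abundant of the 8 genes in every group, at 66.2 ± 7.34 CPM per kb (SD, n=3) in wild type at E10.0, and *Prrx2* followed at 45.3 ± 2.90 without overlap between embryos. *Alx4* reached 13.7 ± 0.479 CPM per kb. *Shox2* (10.3 ± 1.99) and *Alx1* (7.74 ± 1.04) came next, and their embryos overlapped.
*Pax1* lay far lower at 0.654 ± 0.380 CPM per kb. *Pax9* (0.0121 to 0.0361 CPM per kb) and *Pitx1* (0.00771 to 0.0249) closed the order and overlapped. In wild type at E10.5, *Shox2* (13.3 to 14.6 CPM per kb) overlapped with *Alx4* (13.3 to 14.1) and no longer with *Alx1* (5.78 to 6.14). *Pax1* was at 3.79 ± 0.540 CPM per kb, and *Pax9* (0.0903 to 0.101) no longer overlapped with *Pitx1* (0.0330 to 0.0634).
In mutants at E10.0, *Prrx1* (48.5 to 61.8 CPM per kb) and *Prrx2* (17.5 to 26.5) still led the order, the embryos of *Shox2*, *Alx4* and *Alx1* overlapped, and *Pax1* (0.0685 to 0.122) overlapped with *Pax9* and *Pitx1*. In mutants at E10.5, *Shox2* (16.0 to 22.5 CPM per kb) overlapped with *Prrx2* (16.3 to 22.6) in place of *Alx4*. The merged length counts every annotated exon of a gene, and the isoforms used were not tested.

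**Figure D1:**
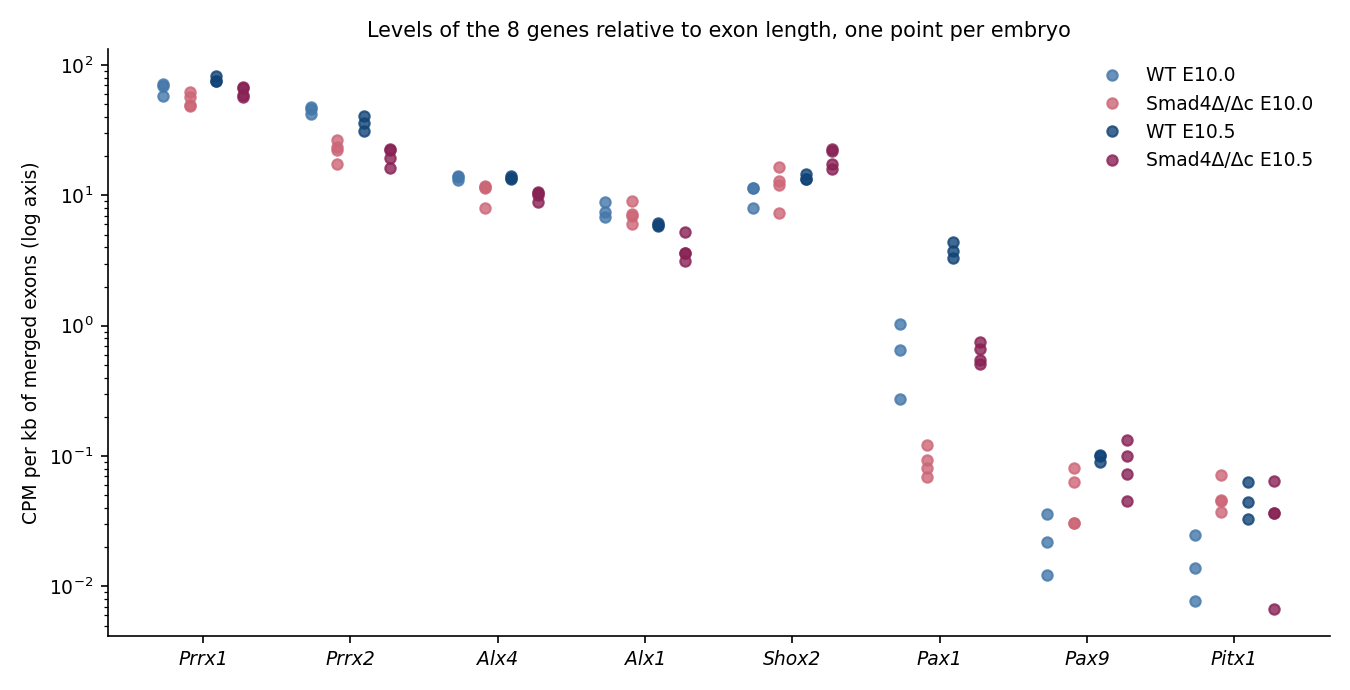
Levels of the 8 genes in CPM per kb of merged exons on a log axis, with 1 point per embryo coloured by group. *Prrx1* and *Prrx2* lie highest, *Pax9* and *Pitx1* lowest, and *Pax1* in mutants at E10.0 falls to the level of *Pax9* and *Pitx1*.

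Between the genotypes, DEGs were called with the exact test of edgeR over 12393 genes, with limits of 0.1 for the Benjamini-Hochberg FDR and 1.2 for the fold change. Of the 8 genes, *Pax9* and *Pitx1* did not reach the required 1 CPM in 3 samples and were not tested. At E10.0, 4 of the 6 tested genes were downregulated in *Smad4*Δ/Δc forelimb buds (*Pax1*, *Prrx2*, *Alx4* and *Prrx1*), while 3.28% of all tested genes were downregulated, 3.33% upregulated and 6.61% changed in either direction. At E10.5, 5 of the 6 were downregulated (the same 4 genes and *Alx1*), where 1.54% of all tested genes were downregulated, 2.19% upregulated and 3.73% changed in all. The embryos of the genotypes did not overlap for 3 of the 6 genes at E10.0 and for all 6 at E10.5, against 17.8% and 13% of all tested genes. The median log2 fold change of the 6 genes was -0.32 at E10.0 (-0.02 over all tested genes) and -0.53 at E10.5 (-0.01 over all).

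**Figure D2:**
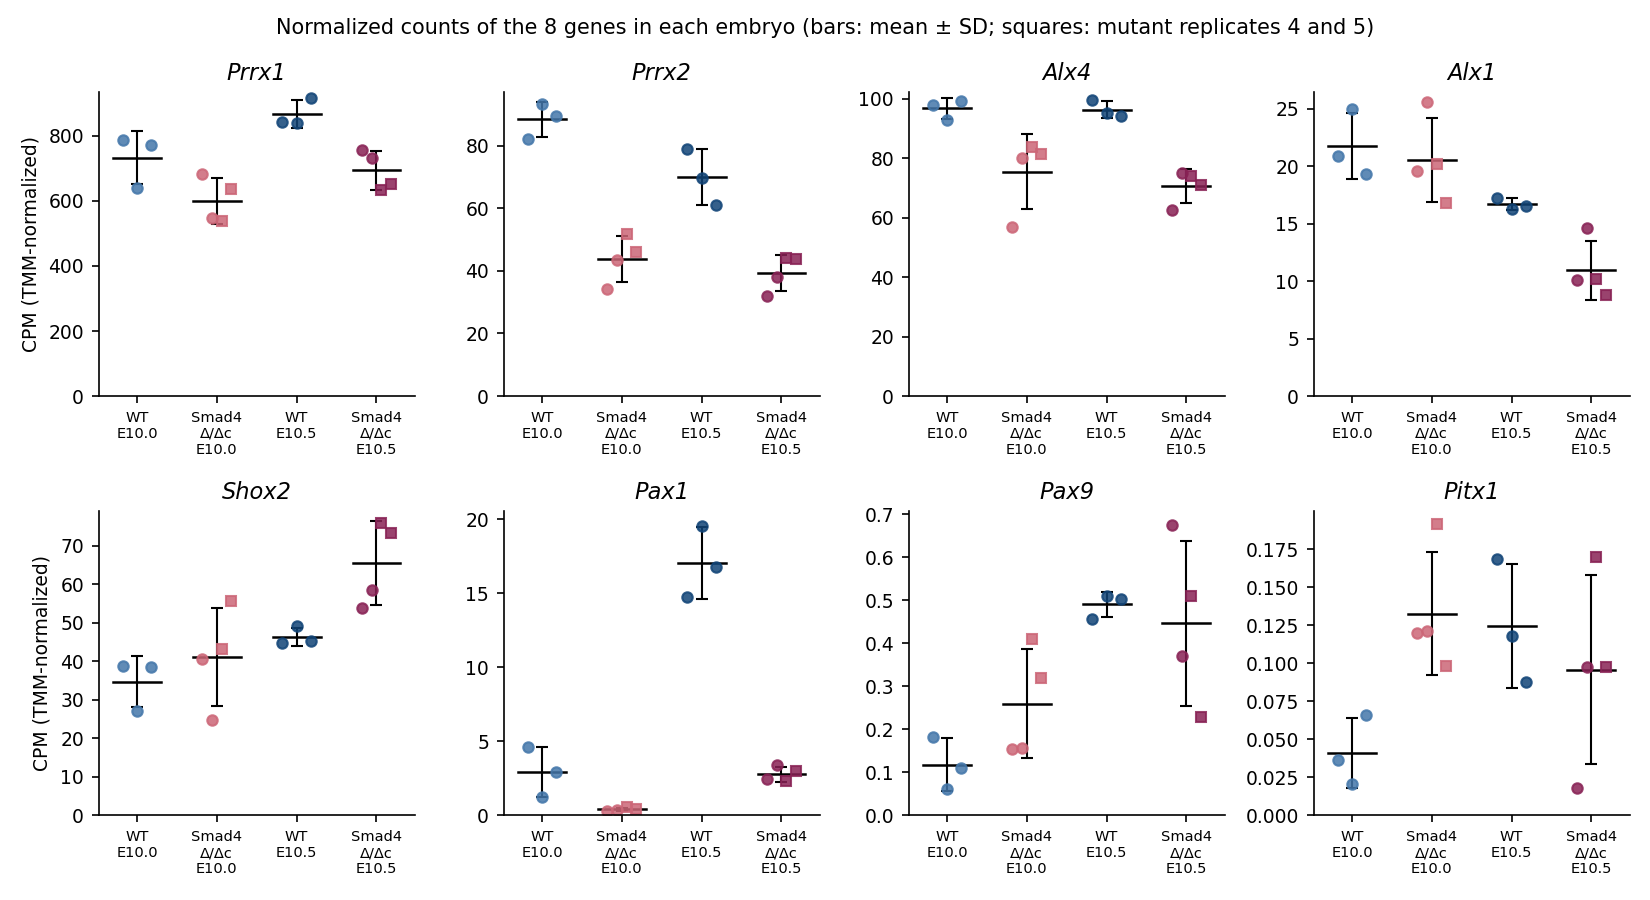
TMM-normalized CPM of the 8 genes in each embryo, 1 panel per gene with its own axis from 0. Lines and bars are the mean ± SD of a group (n=3 or 4), and squares are mutant replicates 4 and 5. *Prrx2* and *Pax1* are lower in each mutant embryo than in any wild-type embryo of its stage, and *Pax9* and *Pitx1* stay below 0.7 CPM.

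*Pax1* (mm9, chr2:147187661-147219031, plus strand) encodes a paired-box factor of sclerotome and scapula. At E10.0, the wild-type embryos had 4.64, 1.23 and 2.95 CPM and the mutants 0.308, 0.364, 0.546 and 0.418 CPM. Each mutant embryo was below each wild-type embryo, and the wild-type embryos differed widely among themselves. The mutants retained 17 to 21 *Pax1* reads per embryo. The log2 fold change was -2.87 (SE 0.329, adjusted *P*=6.09e-15, exact test of edgeR, Benjamini-Hochberg), a 7.30-fold decrease. With each library left out in turn it ranged from -3.25 to -2.37.
At E10.5, *Pax1* had 14.8, 19.6 and 16.8 CPM in the wild-type embryos, and 2.47, 3.40, 2.29 and 3.00 CPM in the mutant ones. The groups were again fully separated, with a log2 fold change of -2.61 (SE 0.287, adjusted *P*=5.51e-16, same test), a 6.10-fold decrease. The mutants at E10.5 (2.79 ± 0.503 CPM, SD, n=4) thus had a mean close to that of the wild type at E10.0 (2.94 ± 1.71 CPM, SD, n=3). These 2 groups were not tested against each other.
*Pax1* shares 59 bp of exon with the gene *AI646519* on the opposite strand, and reads were counted without strand, so that reads in this stretch are ambiguous.

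As *Pax1* is also a sclerotome gene, markers of sclerotome and somite (*Nkx3-2*, *Meox1*, *Meox2*, *Uncx*, *Tcf15*, *Foxc2* and *Mesp2*) were measured beside it. Their summed level was 45.6 to 48.2 CPM in wild type and 55.1 to 65.3 CPM in mutants at E10.0, and 68.4 to 82.1 and 88.0 to 96.2 CPM at E10.5. The sum was higher in each mutant embryo at both stages, but its members did not move together. At E10.5 most of it was *Meox2* (44.4 ± 4.26 CPM in wild type, n=3, and 63.5 ± 3.10 in mutants, n=4, SD), while *Meox1* had 22.5 ± 4.13 and 17.7 ± 1.68 CPM. *Tcf15* passed the DEG thresholds upward at both stages, *Meox1* at E10.0 and *Meox2* at E10.5, of 4 markers tested. *Nkx3-2*, a target of PAX1 in the sclerotome, was at 0 in all embryos at E10.0.

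*Pax9* (mm9, chr12:57792754-57813809, plus strand) is the closest paralogue of *Pax1*. It had 10, 3 and 5 reads in wild-type embryos at E10.0 and 9, 9, 15 and 13 reads in mutants. At E10.5 there were 19, 26 and 23 reads in wild type and 38, 19, 18 and 7 in mutants. The genotypes overlapped at both stages. In the fit without a filter on low counts, the log2 fold change of *Pax9* between genotypes was 1.05 at E10.0 (adjusted *P*=0.299) and -0.10 at E10.5 (adjusted *P*=1), both by the exact test of edgeR.
As a share of *Pax1* plus *Pax9* on the per-length scale, *Pax9* made up 3.21% to 4.25% in wild type and 27.6% to 40.5% in mutants at E10.0. The shares at E10.5 were 2.26% to 2.68% and 6.33% to 19.5%. At these low read counts of *Pax9*, the larger share in mutants goes with the lower *Pax1* level and was not tested. At E10.0 the mean of *Pax9* was also higher in mutants (0.260 against 0.118 CPM in wild type). *Pax9* also shares 189 bp of exon with *Slc25a21*, which is on the opposite strand. Markers of pharyngeal endoderm, another site of *Pax1* and *Pax9* expression, were nearly absent: *Nkx2-1*, *Nkx2-5* and *Foxa2* together reached at most 0.275 CPM in an embryo.

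*Prrx2* (mm9, chr2:30690492-30736761, plus strand) encodes a homeobox factor of limb and craniofacial mesenchyme. At E10.0 it had 82.2, 93.4 and 89.4 CPM in the wild-type embryos and 34.2, 43.5, 51.7 and 45.9 CPM in the mutants. The mutants lay well below the wild type without overlap. *Prrx2* was downregulated 2.02-fold (log2 fold change -1.01, SE 0.132, adjusted *P*=1.07e-11, exact test of edgeR, Benjamini-Hochberg).
At E10.5 the wild type had 78.8, 69.8 and 61.0 CPM and the mutants 31.8, 38.0, 44.1 and 43.7 CPM. The groups stayed apart, with a 1.78-fold decrease (log2 fold change -0.83, SE 0.132, adjusted *P*=1.03e-07, same test). At both stages mutant replicate 1 was lowest and replicate 4 highest among the mutants.

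*Prrx1* (mm9, chr1:165175247-165243841, minus strand) is the paralogue whose regulatory sequence drives the CRE transgene. Its levels at E10.0 were 788, 640 and 771 CPM in wild type against 684, 547, 537 and 635 CPM in mutants. Wild-type replicate 2 lay below mutant replicate 1, so that the groups overlapped. The 1.22-fold decrease passed the thresholds narrowly (log2 fold change -0.29, SE 0.104, adjusted *P*=0.0893, exact test of edgeR, Benjamini-Hochberg). The call was lost when any of 9 libraries was left out: wild-type replicates 1 or 3 or mutant replicates 3, 4 or 5 at E10.0, or wild-type replicates 1, 2 or 3 or mutant replicate 2 at E10.5, with log2 fold changes of -0.31 to -0.23 and adjusted *P* of 0.118 to 0.480. It was also lost with RLE size factors (adjusted *P*=0.117), with *Rn45s* left out (0.104), with no filter on low counts (0.166) and with only the groups compared (0.155), which left 3 of the 6 genes called.
At E10.5, the wild type had 842, 840 and 915 CPM and the mutants 756, 733, 633 and 653 CPM, without overlap. The log2 fold change was -0.32 (SE 0.104, adjusted *P*=0.0641, same test). This call was lost without wild-type replicate 1, 2 or 3 or mutant replicate 4 or 5 at E10.5 (adjusted *P* 0.169 to 0.364). Without mutant replicates 4 and 5 of both stages, *Prrx1* was not called at either stage (log2 fold changes -0.24 and -0.21, adjusted *P* 0.123 and 0.362), nor was it by edgeR's quasi-likelihood test with all embryos (adjusted *P* 0.122 and 0.136).

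Within the *Prrx* pair, *Prrx2* made up 37.2%, 45.3% and 39.7% of the per-length total in the 3 wild-type embryos at E10.0 and 22.1%, 31.1%, 35.3% and 29.1% in the mutants. The shares did not overlap at this stage. At E10.5 they were 34.7%, 32.0% and 27.4% in wild type and 19.3%, 22.8%, 28.3% and 27.5% in mutants, with an overlap between wild-type replicate 3 and mutant replicates 4 and 5. *Prrx1* exceeded *Prrx2* in every embryo, by 1.21 to 1.69 times in wild type and 1.83 to 3.53 times in mutants at E10.0. These shares were computed within each library and were not tested.

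**Figure D3:**
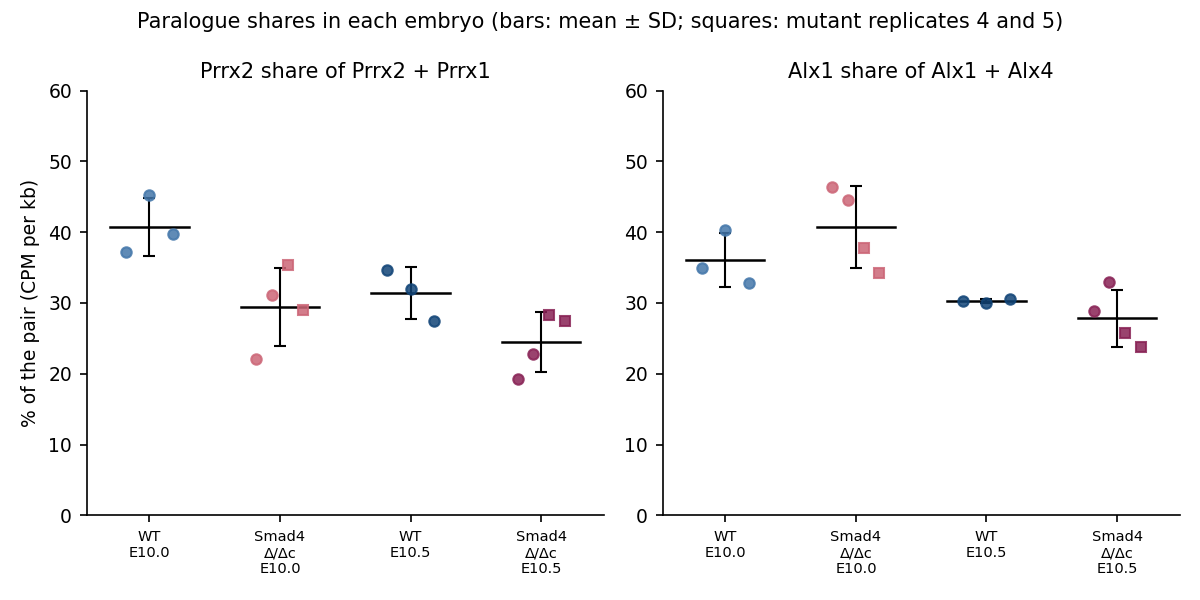
Share of *Prrx2* in *Prrx1* plus *Prrx2* and of *Alx1* in *Alx1* plus *Alx4*, in percent of CPM per kb, for each embryo. Lines and bars are the mean ± SD (n=3 or 4), and squares are mutant replicates 4 and 5. At E10.0 the *Prrx2* shares of the mutants (22.1% to 35.3%) lie below those of the wild type (37.2% to 45.3%), and the *Alx1* shares overlap.

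*Alx4* (mm9, chr2:93482541-93521496, plus strand) encodes an aristaless-type factor of the anterior limb bud mesenchyme. At E10.0, the wild-type embryos had 98.0, 92.9 and 99.3 CPM and the mutants 56.8, 80.1, 83.7 and 81.3 CPM. Each mutant was below each wild-type embryo, and mutant replicate 1 was well below the other mutants. The log2 fold change was -0.36 (SE 0.110, adjusted *P*=0.0329, exact test of edgeR, Benjamini-Hochberg), a 1.28-fold decrease. Without mutant replicate 1 it was -0.24 and no longer called (adjusted *P*=0.105, same test), and the call was also lost without wild-type replicate 1 or 3 (log2 fold changes -0.35 and -0.33, adjusted *P* 0.121 and 0.257).
At E10.5, *Alx4* had 99.5, 95.3 and 94.3 CPM in wild type against 62.6, 75.0, 74.0 and 70.9 CPM in mutants. The separation was complete, with a 1.36-fold decrease (log2 fold change -0.45, SE 0.111, adjusted *P*=0.00310, same test). No single library changed this call.

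*Alx1* (mm9, chr10:102470481-102491685, minus strand) is best known for its part in craniofacial mesenchyme. At E10.0 the wild-type embryos had 20.9, 25.0 and 19.4 CPM and the mutants 19.6, 25.6, 20.2 and 16.8 CPM. The groups overlapped and *Alx1* was not called (log2 fold change -0.08, 95% interval -0.39 to 0.23, adjusted *P*=0.845, the exact test of edgeR). At E10.5, wild-type embryos had 17.3, 16.2 and 16.5 CPM and mutants 10.1, 14.6, 10.2 and 8.83 CPM. All mutants were then below the wild type, mutant replicate 2 being closest to it, and *Alx1* was downregulated 1.52-fold (log2 fold change -0.60, SE 0.161, adjusted *P*=0.00822, same edgeR test with Benjamini-Hochberg adjustment). Without mutant replicates 4 and 5 the log2 fold change was -0.42 and not called (adjusted *P*=0.172).
*Alx1* made up 36.0% ± 3.85 (SD, n=3) of the *Alx1* plus *Alx4* total per length in wild type at E10.0 and 40.7% ± 5.73 (SD, n=4) in mutants, and 30.3% ± 0.309 and 27.8% ± 3.98 at E10.5. The embryos overlapped at both stages.

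*Shox2* (mm9, chr3:66775649-66785693, minus strand) encodes a homeobox factor required for the proximal limb skeleton, and was the only one of the 6 genes with a higher mean in mutants. At E10.0 it had 38.8, 27.0 and 38.4 CPM in wild type against 40.5, 24.8, 43.2 and 55.8 CPM in mutants. The groups overlapped (log2 fold change 0.24, 95% interval -0.13 to 0.61, adjusted *P*=0.551, the exact test of edgeR). Without mutant replicate 3 the log2 fold change was 0.42 and called (adjusted *P*=0.0994), and without mutant replicates 4 and 5 it was -0.07 (adjusted *P*=0.822).
At E10.5, *Shox2* had 44.7, 49.1 and 45.2 CPM in wild type against 53.8, 58.5, 76.0 and 73.4 CPM in mutants. Each mutant was above each wild-type embryo, but the difference did not pass the thresholds (log2 fold change 0.50, 95% interval 0.13 to 0.87, adjusted *P*=0.191, exact test of edgeR, Benjamini-Hochberg). It passed when only the E10.5 groups entered the fit (adjusted *P*=0.00203), and when mutant replicate 3 or 5 at E10.0 or mutant replicate 1 at E10.5 was left out (adjusted *P* 0.0266, 0.0900 and 0.0966). Replicates 4 and 5 were the highest mutants at both stages, and without them the log2 fold change at E10.5 was 0.29 (adjusted *P*=0.445). *Shox2* shares 153 bp of exon with *Rsrc1* on the opposite strand.

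*Pitx1* (mm9, chr13:55926415-55937553, minus strand) was barely detected, as 1 to 7 reads per embryo. Wild-type replicates had 2, 1 and 3 reads and mutants 7, 7, 7 and 4 at E10.0, and 7, 6 and 4 against 1, 5, 6 and 3 reads at E10.5. No fold change is given at such counts. The other hindlimb genes in the set of markers were higher: *Tbx4* had 1.51 to 4.29 CPM (wild type) and 2.22 to 4.70 CPM (mutants) at E10.0, and 6.61 to 8.53 and 12.4 to 16.0 CPM at E10.5. *Tbx4* was a DEG at E10.5 (log2 fold change 0.79, adjusted *P*=0.0955, the exact test of edgeR) and *Isl1* at E10.0 (log2 fold change 1.32, adjusted *P*=0.0300), both upregulated in mutants.

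Some sets of cell markers moved with the genotype beside these changes, and others did not. Of 6 limb bud mesenchyme markers, 3 were downregulated in mutants at E10.0 (*Twist1*, *Lhx2* and *Tbx5*) and 2 at E10.5 (*Lhx2* and *Twist1*), and their summed level was 660 to 750 CPM in wild type against 524 to 659 CPM in mutants at E10.0 and 637 to 676 against 528 to 604 CPM at E10.5. Mesothelial markers (*Wt1*, *Upk3b* and *Msln*) summed to 1.08 to 2.64 CPM in wild type and 7.94 to 18.3 CPM in mutants at E10.0, but to 2.91 to 5.49 and 0.586 to 2.38 CPM at E10.5. Macrophage markers summed to 1.78 to 4.13 CPM in wild type and 5.51 to 6.74 CPM in mutants at E10.0, and overlapped at E10.5 (9.09 to 10.3 and 9.70 to 16.4 CPM). Surface ectoderm and ridge markers overlapped between genotypes at E10.0 (208 to 266 and 172 to 255 CPM). The sums of muscle precursor, endothelium and erythroid markers overlapped at both stages. At E10.0 they were 80.4 to 95.6 and 83.6 to 109 CPM for muscle precursors, and 240 to 280 and 258 to 311 CPM for endothelium. Neural crest and nerve markers overlapped at E10.0 but were lower in mutants at E10.5 (10.5 to 11.1 and 7.81 to 10.2 CPM). The part of these differences in the changes of the paired-type genes was not tested.

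**Figure D4:**
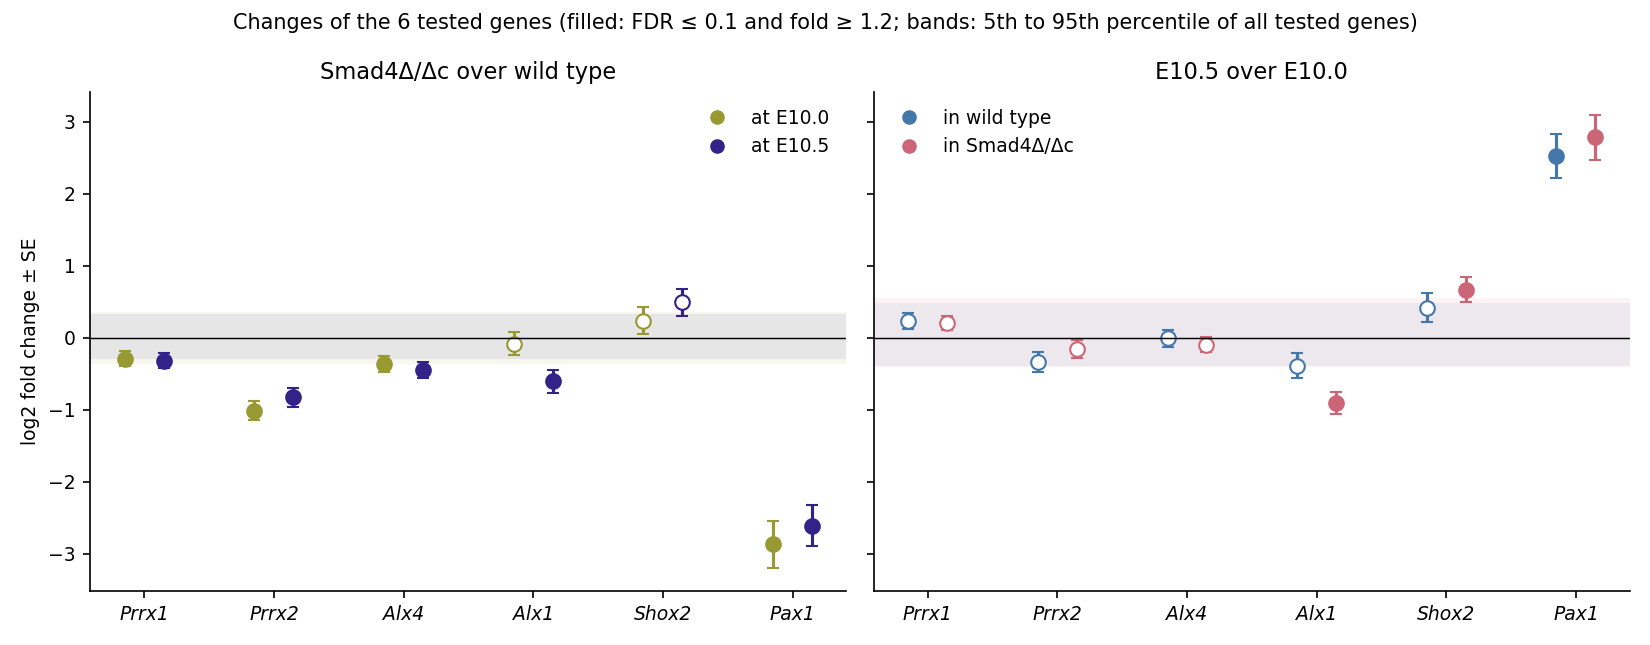
Log2 fold changes ± SE of the 6 tested genes, mutant over wild type at each stage (left) and E10.5 over E10.0 in each genotype (right). Filled points passed both limits (FDR 0.1, fold change 1.2), and the bands span the 5th to 95th percentile of all 12393 tested genes. *Pax1* and *Prrx2* lie below the band in mutants at both stages, and *Pax1* lies far above it between stages in both genotypes.

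Between E10.0 and E10.5, *Pax1* was the gene with the largest change of the 6 in either genotype. The stage comparisons use the same embryos as the genotype comparisons. In wild type, *Pax1* rose 5.78-fold (log2 fold change 2.53, SE 0.305, adjusted *P*=2.28e-12, exact test of edgeR, Benjamini-Hochberg), and it was the only one of the 6 that was called, where 10.1% of all tested genes were (5.39% up and 4.74% down). In mutants it rose 6.91-fold (log2 fold change 2.79, SE 0.312, adjusted *P*=4.63e-16, same test). The reads of *Pax9* in wild type also increased, from 3 to 10 per embryo to 19 to 26, and in the fit without a filter the log2 fold change was 2.02 (adjusted *P*=0.00222, the exact test of edgeR).

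In mutants 3 of the 6 genes changed between the stages, where 19.2% of all tested genes did (10.8% up and 8.4% down). *Alx1* fell by 0.91 on the log2 scale (SE 0.149, adjusted *P*=7.69e-08, exact test of edgeR, Benjamini-Hochberg), without overlap between stages. *Shox2* rose by 0.67 on the log2 scale (SE 0.175, adjusted *P*=0.00164, same test), although its highest embryo at E10.0 lay above the lowest at E10.5. In wild type, *Alx1* had a log2 fold change of -0.38 (95% interval -0.72 to -0.05, adjusted *P*=0.161) and *Shox2* of 0.42 (95% interval 0.02 to 0.81, adjusted *P*=0.211). *Prrx2* in wild type had a log2 fold change of -0.34 (adjusted *P*=0.129). These 3 genes passed the thresholds in wild type when only the wild-type groups entered the fit (adjusted *P* 0.0130, 0.0114 and 0.00924). The embryos of the stages did not overlap for 5 of the 6 genes in wild type and for 2 of the 6 in mutants, against 37% and 20% of all tested genes.
*Alx4* and *Prrx1* did not pass the thresholds between stages in either genotype. For *Alx4* the log2 fold change was -0.01 in wild type (95% interval -0.24 to 0.23) and -0.09 in mutants (-0.30 to 0.11). For *Prrx1* it was 0.24 (0.02 to 0.46) and 0.21 (0.02 to 0.40).

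The dependence of the genotype change on stage was tested directly by the interaction in edgeR's quasi-likelihood test. None of the 6 genes passed an FDR of 0.1, where 0.186% of all tested genes did (0.0565% with a positive and 0.129% with a negative interaction). *Alx1* came closest, with an interaction of -0.52 (95% interval -0.96 to -0.08, unadjusted *P*=0.0363, adjusted *P*=0.806), and was the 1 gene with an unadjusted *P* under 0.05. DESeq2 likewise called 0 of the 6. The intervals of the other interactions ran from -0.18 to 0.55 for *Prrx2*, from -0.58 to 1.13 for *Pax1* and from -0.27 to 0.78 for *Shox2*. All these intervals use the dispersion fitted for the exact test, so they are not intervals of the quasi-likelihood test. Thus the call of *Alx1* at E10.5 but not at E10.0 was not shown to be a difference between stages.

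Other paired-class and *Pax* genes were read from a list of 32 symbols, of which 31 were in the tables and only 4 were expressed enough to be tested. *Gsc*, a goosecoid homeobox gene, had 4.83 ± 0.811 CPM (SD, n=3) in wild type against 2.33 ± 1.05 CPM (SD, n=4) in mutants at E10.0, and 6.58 ± 0.814 and 3.15 ± 0.730 CPM at E10.5. It was downregulated at both stages (log2 fold change -1.07 each, adjusted *P*=0.00395 and 0.00289, the exact test of edgeR). *Pax3*, a paired-box gene of muscle precursors, was not called at either stage (log2 fold changes 0.09 and -0.26, adjusted *P* 0.741 and 0.297).

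Of 22 regulators of limb and shoulder girdle, all of which were tested, 6 were downregulated and 3 upregulated in mutants at E10.0, and 7 downregulated and 3 upregulated at E10.5. Their median log2 fold change was -0.13 and -0.15. The most significant at E10.0 were *Msx2* (log2 fold change -1.05), *Tbx2* (-0.79), *Twist1* (-0.34) and *Lhx2* (-0.47), of which *Msx2* and *Tbx2* are known to respond to BMP signals. At E10.5 they were *Msx2* (log2 fold change -1.66), *Tbx2* (-1.01), *Runx2* (-1.17) and *Tbx3* (-0.56). Among genes that act in scapula development, *Emx2* had log2 fold changes of 0.41 (called) and 0.20, *Tbx15* of 0.33 and 0.55 (both called) and *Tbx18* of 0.20 and 0.53 (called at E10.5), that is, opposite in sign to *Pax1*.

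For each of the 6 genes, the tested genes with the most similar profile over the 14 embryos were sought by the root mean square difference of centred log2(CPM + 1) values. The profile of *Prrx1* was closest to those of *Pgm2l1* (0.0772) and *Fam131b* (0.104), against an SD of *Prrx1* of 0.231 over embryos. *Alx4* was closest to *Smad7* (0.0979), a feedback inhibitor of SMAD signal transduction, and *Dok1* (0.111), *Alx1* to *Hapln1* (0.140) and *Mycn* (0.151), and *Shox2* to *Osr1* (0.136) and *Frmd4a* (0.166). *Prrx2* was closest to *Pth1r* (0.202) and *Atoh8* (0.203). For *Pax1*, with an SD of 1.37, the closest genes were *Runx2* (0.794) and *Bcl11a* (0.815), with smaller SDs of 0.602 and 0.619. The distance is not scaled, so it also counts a difference in the size of changes, and it does not show a different shape. These distances are a description over embryos that share stage and genotype.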

How the data were processed

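RNA-seq of 14 forelimb bud pairs, each from 1 embryo, was analysed from raw read counts per gene that the authors deposited. The authors had aligned single-end reads of polyA libraries to mm9 with TopHat (2.0.13), kept uniquely mapped reads and counted them per refGene symbol with htseq-count, without strand. Loci and merged exon lengths came from the mm9 GENCODE annotation, promoters from RefSeq (GRCm38.p6). Following the study's methods, autosomal genes that reached 1 CPM in 3 or more samples were tested, and groups were compared with edgeR (4.0.16, R 4.3.3): TMM normalization, tag-wise dispersion over all 14 samples (prior of 10 degrees of freedom), exact test, Benjamini-Hochberg FDR up to 0.1, fold change from 1.2 up. This test was used in place of the quasi-likelihood test because the study names it; the interaction used the quasi-likelihood test. SEs, also those of the interaction, were computed from the tag-wise dispersion fitted for the exact test, at the group means. The 95% intervals are 1.96 SEs either side. Scripts were tested on simulated data.

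The genes and lists were chosen with earlier results of these data known. Named were the 8 genes, *Smad4*, up to 4 called genes per list and genotype comparison by smallest *P*, the cell markers, and for each tested gene the 2 with the closest profile among genes of at least 5 CPM; *Emx2*, *Tbx15*, *Tbx18* and *Pax3* were named after their values were seen. Some genes that meet the rule are not reported here. No replicates were merged, since their counts differed by more than sampling allows (chi-square over degrees of freedom 12.2 or more). Same-numbered mutants of the 2 stages deviated together (correlations across genes 0.571, 0.611 and 0.269 for replicates 1, 4 and 5). Differently numbered mutants ranged from -0.587 to 0.383, the highest being replicate 4 at E10.0 with replicate 5 at E10.5. Replicate 5 at E10.0 had 0.286 with replicate 4 at E10.5, above its value with replicate 5. Shared numbers thus do not establish pairs, and the main tests paired no embryos. Alternatives were DESeq2 (1.42.0), the quasi-likelihood test, a replicate block, RLE size factors, no filter, all chromosomes, *Rn45s* left out, only the groups compared, each library left out, and mutant replicates 4 and 5 left out.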

Additional observations from a re-analysis of the deposited data

Results flagged for a closer look

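In mutants at E10.0, replicate 1 had 56.8 CPM of *Alx4*, against 80.1 to 83.7 CPM in the other 3 mutants, a gap to the nearest embryo beyond Dixon's 95% critical value for 4 samples. Of the 16 groups of 4 embryos examined (8 genes at 2 stages) this was the only one, and chance marks about 1 in 20. Without this embryo the log2 fold change of *Alx4* at E10.0 was -0.24 and no longer called. The same embryo had the lowest *Prrx2* (34.2 CPM) and the highest *Prrx1* (684 CPM) of the 4.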

How the results depend on the processing

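*Pax1* and *Prrx2* were called lower in mutants at both stages under every alternative run. The other calls were less stable, and the cause was not tested. Without mutant replicates 4 and 5, 2018 genes were called at E10.0 and 525 at E10.5, each time with 3 of the 6 among them. In this setting *Alx1* and *Shox2* at E10.0 turned to 0.072 and -0.073 (log2), and 4 of the 6 were called between stages in wild type. Over all tested genes, 6 had an interaction in this setting, and none of the 6 paired-type genes was among them. The samples of the genotypes share only replicate numbers (correlations of deviations 0.174 and -0.188 (E10.0), -0.260 and -0.0512 (E10.5), and -0.0785, -0.109 and -0.283 between wild-type stages). With the replicate block, 1990 genes and 4 of the 6 were called at E10.0, and 378 genes and 2 of the 6 at E10.5. Between wild-type stages 1899 genes and 4 of the 6 were called, and 0 of all tested genes had an interaction (23 without the block). *Alx1* and *Shox2* at E10.0 turned to 0.15 and -0.28 with the block. The genes not called at E10.5 with the block were *Alx1* (-0.46, adjusted *P*=0.211), *Alx4* (-0.51, 0.113) and *Prrx1* (-0.18, 0.261), beside *Shox2*. The block changed no call of the 6 genes between mutant stages. With only the groups compared, 1932 genes and 4 of the 6 were called between wild-type stages. DESeq2 gave 87 interactions and no filter 39.

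Changes near 0 turned in sign: *Alx4* between wild-type stages became 0.0019 (DESeq2), 0.0018 (RLE), 0.0036 (*Rn45s* left out), 0.0047 (no filter), 0.0035 (only groups compared) and 0.0075 (without mutant replicates 4 and 5), and between mutant stages 0.013 without those replicates. The interaction became 0.041 (block) and 0.0057 (without replicates 4 and 5) for *Alx4*, and 0.17 and 0.029 for *Prrx1*.

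With each library left out, the numbers called ranged from 254 to 1062 genes and 2 to 4 of the 6 (E10.0), 286 to 516 and 4 to 6 (E10.5), 484 to 1515 and 1 to 2 between wild-type stages, 1895 to 2732 and 3 to 4 between mutant stages, and 7 to 34 interactions. The lowest were 254 without wild-type replicate 3 at E10.0 (2 of the 6, as without wild-type replicate 1), 286 without wild-type replicate 2 at E10.5 and 484 without wild-type replicate 2 at E10.0. *Alx1* at E10.0 ranged from -0.21 to 0.030, *Alx4* between wild-type stages from -0.034 to 0.021, and the interaction from -0.089 to 0.056 for *Prrx1* and from -0.23 to 0.64 for *Pax1*. The split of all genes at E10.0 was 413 higher and 406 lower with TMM, 512 and 336 with RLE, 519 and 313 without *Rn45s*, and 274 and 327 by the quasi-likelihood test.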
